A study of Mus musculus and Mus musculus
Rattus norvegicus with 30 samples.

Results

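The regions described here are 6527 stretches of mouse chromatin that were more accessible after induction of mouse Cdx2 (mCdx2) in mouse embryonic stem cells (mESCs) and that overlapped a Cdx2 binding peak. They are called opened Cdx2-bound peaks below. They were chosen by 3 measured values, namely a total of at least 40 scaled ATAC-seq reads over both libraries, a log2 ratio of mCdx2-OE to wild-type (WT) reads above 1, and an overlap of at least 1 bp with a peak of the Cdx2 ChIP-seq. They were taken from 119304 ATAC-seq peaks on chromosomes 1 to 19 (122350 with all other chromosomes), of which 83368 reached 40 scaled reads, so that 7.83% of the latter were chosen. ATAC-seq marks open chromatin by the insertions of a transposase, and ChIP-seq marks the places where a protein sits on DNA.

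The study asked whether mouse Cdx2, which differs from rat Cdx2 (rCdx2) in its DNA binding domain, acts differently from it. Flag-tagged Cdx2 was expressed from lentiviral, doxycycline-inducible transgenes in stable lines (OE, overexpression), and ChIP-seq used an antibody against the Flag tag. The libraries used here are, for mESCs, ATAC-seq of WT and mCdx2-OE cells (1 each), ChIP-seq of mCdx2-OE and rCdx2-OE cells (1 each) and RNA-seq of WT, mCdx2-OE and rCdx2-OE cells (2 each). For RMES cells, made by fusing haploid mouse with haploid rat ESCs, they are ChIP-seq of mCdx2-OE and rCdx2-OE cells (1 each) and RNA-seq of WT (2), mCdx2-OE (1) and rCdx2-OE cells (1), all read on the mouse genome. Whether WT means uninduced transgenic or parental cells, and whether a line was 1 clone, is not given in the labels. The columns of the ChIP-seq tables carry abbreviated names, and their assignment to mCdx2 and rCdx2 is an inference from the labels. With 1 ATAC-seq library per condition and 1 ChIP-seq library per protein, differences in these reads have no replicate check, and the intervals given for shares of regions cover counting error only.

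Cdx2 is a homeobox transcription factor that specifies the trophectoderm, the outer layer of the blastocyst that forms the placenta, and later patterns the posterior embryo and the intestinal epithelium. It binds AT-rich sites built around an ATAAA core, and it regulates the Hox genes, which encode the homeobox factors that give the body axis its positional identity. In ES cells, forced expression of Cdx2 is a classical way to drive cells towards the trophoblast.

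Sequences of 6 regions are shown to make the binding sites visible. The first 5 lie near genes of the lists described below, and the last is the binding site with most ChIP-seq reads. Each is a window of 200 bp centred on the strongest overlapping Cdx2 peak, given on the + strand of GRCm38 (mm10). Capitals mark Cdx words on either strand, either 1 of the 8-letter words GCAATAAA, GTAATAAA, GCCATAAA and GTCATAAA or the same without its first letter.
Krt8, chr15:102007568-102007767: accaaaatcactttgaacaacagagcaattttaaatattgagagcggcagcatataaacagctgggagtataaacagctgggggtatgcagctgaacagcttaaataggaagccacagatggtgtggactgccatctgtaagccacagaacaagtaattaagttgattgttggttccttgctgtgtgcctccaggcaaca
Hoxa5, chr6:52200995-52201194: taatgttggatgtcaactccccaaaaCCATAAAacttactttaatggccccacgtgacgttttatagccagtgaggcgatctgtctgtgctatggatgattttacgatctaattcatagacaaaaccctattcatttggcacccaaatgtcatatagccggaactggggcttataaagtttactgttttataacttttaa
Cubn, chr2:13479324-13479523: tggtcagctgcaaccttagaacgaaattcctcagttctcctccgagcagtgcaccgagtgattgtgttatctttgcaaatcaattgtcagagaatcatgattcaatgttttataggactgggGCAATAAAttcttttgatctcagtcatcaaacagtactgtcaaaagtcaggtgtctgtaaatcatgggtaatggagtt
Wnt5a, chr14:28501404-28501603: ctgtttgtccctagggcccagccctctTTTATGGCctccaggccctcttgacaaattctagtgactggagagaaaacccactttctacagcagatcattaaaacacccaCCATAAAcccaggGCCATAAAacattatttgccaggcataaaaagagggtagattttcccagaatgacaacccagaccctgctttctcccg
Isx, chr8:74897550-74897749: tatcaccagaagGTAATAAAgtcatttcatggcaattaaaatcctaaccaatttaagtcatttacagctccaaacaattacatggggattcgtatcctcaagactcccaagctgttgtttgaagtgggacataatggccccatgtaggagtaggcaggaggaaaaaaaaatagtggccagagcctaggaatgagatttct
Intron near Ttll7, chr3:146902766-146902965: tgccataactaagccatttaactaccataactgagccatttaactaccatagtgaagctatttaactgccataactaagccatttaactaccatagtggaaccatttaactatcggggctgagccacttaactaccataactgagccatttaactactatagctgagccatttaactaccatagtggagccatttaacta
The Wnt5a window held 2 words of 8 letters, the Isx and Cubn windows held 1 each, and the Hoxa5 window held only a word of 7 letters. No word of either length stood in the Krt8 window or in the Ttll7 window. The latter, a run of short near-identical repeats, was the site with most ChIP-seq reads among the opened regions.

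The opened Cdx2-bound peaks held few reads in WT cells. Their scaled ATAC-seq count had a median of 10.6 (0 to 440) in WT and of 57.4 (27.8 to 905) in mCdx2-OE cells, and the log2 ratio had a median of 2.25 with a highest value of 7.11. These values chose the regions and are given as a description. In all, 15.6% of the regions (1016) had fewer than 5 scaled reads in WT cells, so that most of their height came from the induced cells. Together they took 1.62% of the reads in peaks of the WT library and 7.05% of those of the mCdx2-OE library. Of all tested ATAC-seq peaks on chromosomes 1 to 19, 12.8% passed the same ratio, and the 6527 regions are those of them that overlapped a Cdx2 peak, while 4151 did not.

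**Figure D1:**
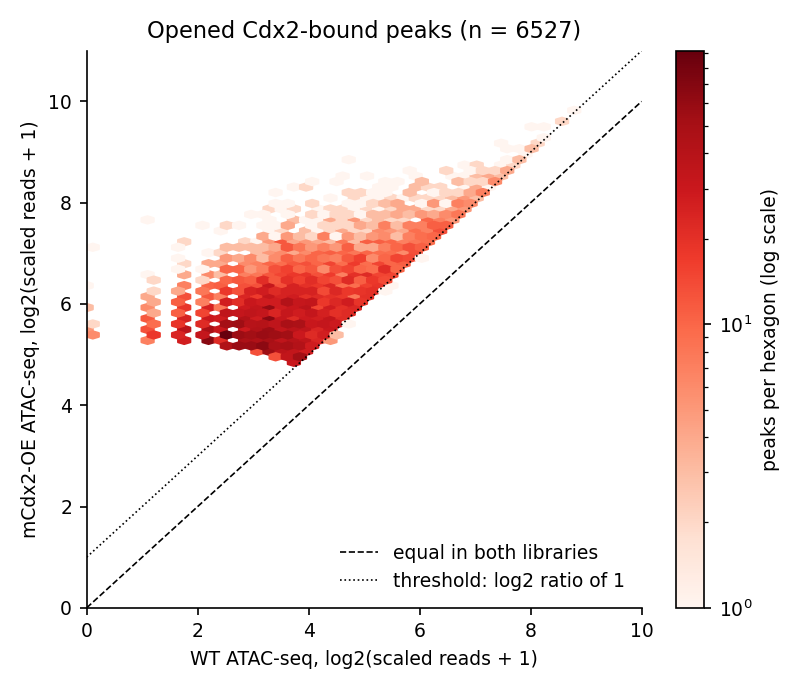
Scaled ATAC-seq reads of the 6527 opened Cdx2-bound peaks in WT (x axis) and mCdx2-OE (y axis) mESCs, both as log2(scaled reads + 1). Darker hexagons hold more peaks on a log colour scale, the dashed line marks equal reads and the dotted line the log2 ratio of 1 that chose the peaks, and most peaks lie at low WT values.

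At the edge of the rule, the region just above the ratio held 41.2 WT and 83.4 mCdx2-OE scaled reads, and the bound region just below it held 109.5 and 219.9 reads at a log2 ratio of 0.999. At the minimum of 40 reads, 3 regions just inside held 3.53 WT and 36.5 mCdx2-OE reads each. A region just outside held 0 WT and 39.97 mCdx2-OE reads, so some regions with a strong contrast were left out for depth alone.

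The largest ratios were found in introns and between genes. In an intron on chromosome 3 (chr3:97722921-97724002), the WT library held 0 and the mCdx2-OE library 137 scaled reads. An intron nearest to Elmo1 on chromosome 13 (chr13:20159984-20161662) held 1.18 and 195.5 reads. Of the 10 regions with the highest ratio at 100 or more reads, none lay in an exon or at a promoter, and 9 also had a Cdx2 peak in RMES cells.

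Opened Cdx2-bound peaks were seldom at promoters. Only 1.92% (95% Wilson interval 1.61% to 2.28%) had their centre within 1 kb of the start of a protein-coding gene, against 14.9% of all tested peaks, 13.5% of Cdx2-bound peaks with an unchanged ATAC-seq signal (log2 ratio within 1 in both directions) and 21.97% of opened peaks without a Cdx2 peak. Closed peaks (log2 ratio below -1) were similarly rare there, at 2.36%. Introns held 49.9% and intergenic stretches 44.5% of the opened Cdx2-bound peaks, and 45.1% and 46.6% of the closed ones. The median distance to the nearest start was 43519 bp, compared with 24229 bp at unchanged bound peaks, 18842 bp at opened peaks without Cdx2 and 18961.5 bp over all tested peaks. The median length of the regions was 720 bp, against 783 bp over all tested peaks, 658 bp at closed and 1073 bp at unchanged bound peaks. Most stood alone, since 12.1% (790) had another such region within 10 kb.

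The regions were AT-rich and held Cdx words near the centre of binding. The central 200 bp had a median GC content of 43.0%, against 51.5% over all tested peaks and 47.5% at unchanged bound peaks. A window centred on the ATAC-seq peak held an 8-letter Cdx word in 20.1% (19.1% to 21.1%) of the opened Cdx2-bound peaks. The share was 6.42% at unchanged bound peaks, 5.61% at opened peaks without Cdx2, 1.15% at closed peaks and 3.47% over all tested peaks. When windows were centred on the Cdx2 peak instead, which gave both bound groups nearly the same GC content (41.0% and 41.5%), the shares were 27.8% (26.7% to 28.9%) and 20.1% (19.0% to 21.2%). All 4 words were more frequent at opened than at unchanged bound peaks, with the widest gap for GCCATAAA (7.63% against 4.23%) and the narrowest for GTAATAAA (6.19% against 5.13%). In the bin from 0 to 50 bp of the centre of binding, Cdx words reached 2.08 per kb at opened and 1.61 at unchanged bound peaks. At 450 to 500 bp they were at 0.184 and 0.183 per kb. Of the words within 500 bp, 32.38% lay within 50 bp of the centre at opened and 40.45% at unchanged bound peaks.

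Words of other factors differed less. In the ATAC-seq windows, the octamer ATTTGCAT of Pou5f1, the core pluripotency factor, stood in 1.65% of opened Cdx2-bound peaks, 2.27% of unchanged bound peaks, 3.16% of closed peaks and 1.70% of all tested peaks. The Sox words CATTGTT and CCATTGT stood in 8.03% of opened Cdx2-bound, 7.85% of unchanged bound and 5.85% of all tested peaks. The Tead word TGGAATG, bound by the effectors of Hippo signalling, stood in 6.20%, 4.23% and 3.999% in the same order, and the Gata word AGATAAG in 3.06%, 2.34% and 2.05%. The AP-1 word TGANTCA stood in 7.15%, 6.16% and 6.17%, and the Tcf/Lef word CTTTGAT in 5.06%, 3.85% and 3.24%. The Pbx-Hox words TGATTTAT and TGATTTAC stood in 3.09%, 1.69% and 1.003%. The first of them can share bases with a Cdx word, since both hold TTTAT on one strand. The GC-rich words ran the other way, with the Klf word GGGNGTGG in 6.14%, 10.3% and 11.7%, and the CTCF words CAGGGGGC, TAGGGGGC, CAGGTGGC and TAGGTGGC in 2.22% of opened Cdx2-bound against 5.87% of all tested peaks. Both strands were searched for every word. In windows centred on the Cdx2 peak, where GC content was nearly equal, most gaps to unchanged bound peaks were smaller. Pbx-Hox words stood there in 3.95% of opened and 3.83% of unchanged bound peaks, Tcf/Lef in 5.81% and 5.52%, AP-1 in 7.43% and 7.11%, and Klf in 5.19% and 6.64%. The intervals did not overlap for the Tead word (6.25%, 5.69% to 6.86%, against 4.79%, 4.23% to 5.41%). In the other direction they did not overlap for Klf (4.68% to 5.76% against 5.98% to 7.36%). The same held for the octamer (1.92%, 1.61% to 2.28%, against 2.72%, 2.31% to 3.21%), whose intervals had overlapped in the ATAC-seq windows. Sox words stood in 8.79% of opened and 9.58% of unchanged bound peaks, with overlapping intervals.

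Cdx2 peaks were higher at the opened regions than at unchanged ones. The summed, scaled ChIP-seq reads of the strongest overlapping Cdx2 peak had a median of 187 (30.8 to 4470), against 86.7 at unchanged bound peaks and 69.1 at the 515 closed peaks with a Cdx2 peak. Only the overlap with a peak, and not its height, chose the regions. After scaling, mCdx2 and rCdx2 gave nearly equal reads, with medians of 93.6 for mCdx2 and 93.3 for rCdx2. The log2 ratio had a median of -0.013 (quartiles -0.19 and 0.15). Both libraries had been scaled to the same total over all Cdx2 peaks, which by itself moves this median towards 0. Without scaling the median was 0.149. Of the 6527 regions, 6 had more than 2-fold higher reads for mCdx2 and 22 for rCdx2. At the strongest site, in the Ttll7 intron, the scaled reads were 2311 for mCdx2 and 2159 for rCdx2. That region held 10.6 ATAC-seq reads in WT and 66.9 in mCdx2-OE cells.

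The opened regions were a small part of all binding. They overlapped 6745 distinct Cdx2 peaks, which is 7.80% of the 86450 Cdx2 peaks on chromosomes 1 to 19. Among the 12075 tested ATAC-seq peaks with a Cdx2 peak, the share that opened followed the strength of binding. It was 27.0% (25.3% to 28.8%) in the lowest quintile of summed ChIP-seq reads, then 36.8%, 50.1% and 69.5%, and 86.9% (85.5% to 88.2%) in the highest. When quintiles were formed from the rCdx2 library alone, which was not made from the mCdx2-OE cells, the lowest and highest shares were 27.7% and 86.9%. The share also followed the number of 8-letter Cdx words in the 200 bp window on the Cdx2 peak, with 51.3% at 0 words, 62.0% at 1, 67.6% at 2 and 94.1% at 3 or more. The last share rests on 16 of 17 peaks (73.0% to 98.95%).

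WT accessibility moves with these measures and partly fixes the outcome, because a peak with few WT reads can reach 40 reads only by opening. All 2415 bound peaks of the lowest WT quintile (up to 8.24 scaled WT reads) were opened for this reason, and in the highest quintile (93.0 WT reads or more) 5.13% were. Within quintiles 3, 4 and 5 of WT reads, the share still grew with ChIP-seq reads. From the lowest to the highest ChIP-seq quintile it went from 24.5% to 81.9% in WT quintile 3, from 10.6% to 57.2% in quintile 4 and from 3.26% to 13.8% in quintile 5. Bound peaks with a Cdx word had fewer WT reads (median 18.8) than those without (27.1). Within WT quintiles the share opened with and without a word was 54.9% (50.7% to 58.97%) and 45.8% (43.6% to 48.1%) in quintile 3 and 28.6% (24.9% to 32.6%) and 20.7% (18.9% to 22.6%) in quintile 4. In quintile 5 it was 7.10% (5.07% to 9.84%) and 4.68% (3.84% to 5.71%), with overlapping intervals.

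**Figure D2:**
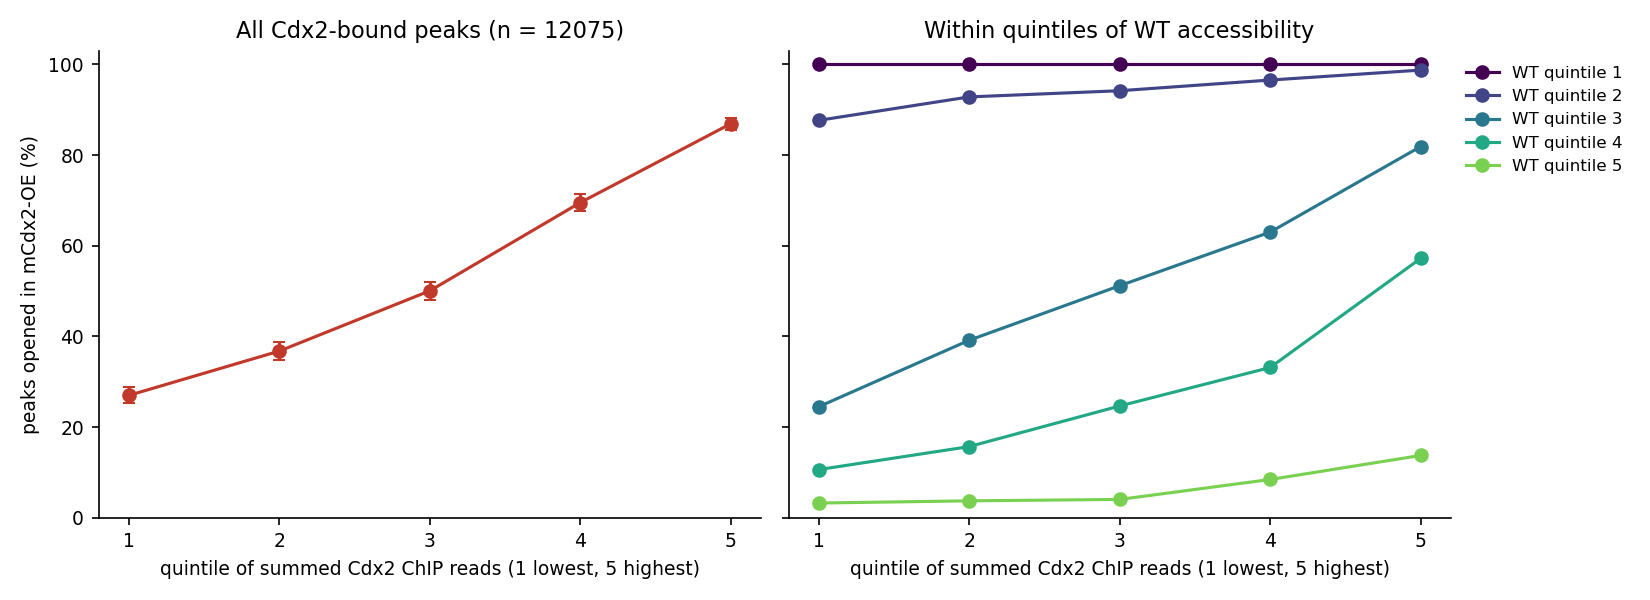
Share of Cdx2-bound ATAC-seq peaks that opened (y axis, %) by quintile of summed Cdx2 ChIP-seq reads (x axis), for all 12075 tested bound peaks with 95% Wilson intervals (left) and within each quintile of WT accessibility (right). The share goes from 27.0% to 86.9% over all peaks, and in WT quintile 1 it is fixed at 100% by the minimum of 40 reads.

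Most of the opened regions were also bound in RMES cells, whose libraries the choice did not use. A Cdx2 peak on the mouse genome of RMES cells overlapped 68.6% (67.5% to 69.7%) of them, against 38.3% (37.0% to 39.7%) of unchanged bound peaks, 0.506% of opened peaks without an mESC Cdx2 peak and 8.11% of all tested peaks. The share followed the height of the mESC peak. In the lowest ChIP-seq quintile it was 8.28% (6.40% to 10.7%) at opened and 12.3% (10.7% to 14.0%) at unchanged bound peaks. In quintile 2 it was 27.8% (24.97% to 30.9%) and 28.7% (26.4% to 31.1%). In quintile 4 it was 85.5% (83.7% to 87.1%) and 72.3% (68.8% to 75.5%), and in the highest quintile 98.4% (97.8% to 98.9%) and 95.02% (91.9% to 97.0%). At like binding strength the gap between both groups was thus smaller than in the totals and turned in the lowest quintile. Cdx words kept the higher share at opened peaks in each quintile, from 28.7% against 21.3% in the lowest to 26.7% against 23.3% in the highest, where the intervals overlapped. Promoter positions were rarer at opened peaks in each quintile. At the 4478 regions with an RMES peak, the log2 ratio of mCdx2 to rCdx2 reads in RMES cells had a median of 0.075, and 35 and 12 regions were more than 2-fold higher for mCdx2 and for rCdx2.

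**Figure D3:**
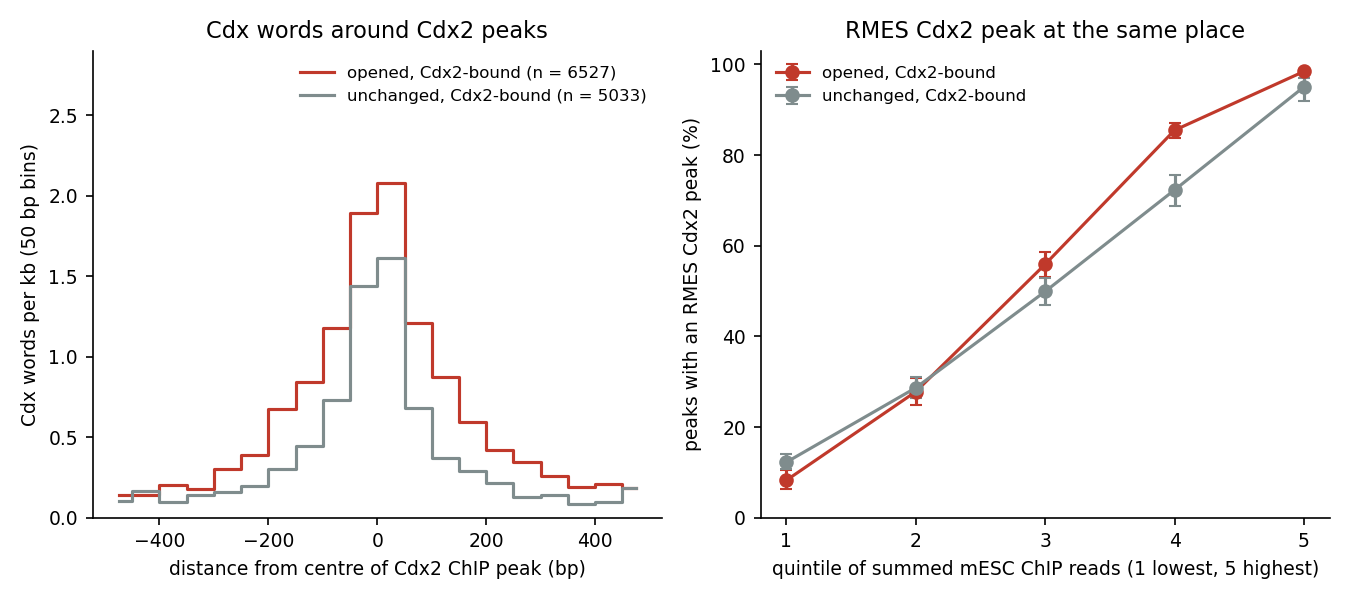
Left, number of 8-letter Cdx words per kb in bins of 50 bp (y axis) by distance from the centre of the Cdx2 peak (x axis), for 6527 opened and 5033 unchanged Cdx2-bound peaks. Right, share of the same peaks with a Cdx2 peak in RMES cells (y axis, %, 95% Wilson intervals) by quintile of mESC ChIP-seq reads (x axis), where both groups go from near 10% to above 90%.

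The regions were unevenly spread over chromosomes. On chromosome 3, 14.9% of the tested ATAC-seq peaks (714) were opened Cdx2-bound peaks, and on chromosome 16 12.8% (478), while the other chromosomes ranged from 4.92% to 9.26%. Opened peaks without Cdx2 were also most numerous on chromosomes 3 and 16 (593 and 368). Over peaks without a Cdx2 peak, the median log2 ATAC-seq ratio was 0.18 on chromosome 3 and 0.053 on chromosome 16, and between -0.41 and -0.23 on the others. RNA-seq moved with it, since the median log2 fold change of genes with a mean of 100 or more counts was 0.28 and 0.11 on these chromosomes in mCdx2-OE cells, and between -0.31 and 0.043 on the others. In rCdx2-OE cells the values were 0.22 and 0.11. The part of these chromosome-wide shifts in the results was not tested beyond leaving out both chromosomes and centring each chromosome. Each was centred on its median ratio over peaks without a Cdx2 peak, which gave 7301 regions in all. They were then 13.9% of the tested peaks on chromosome 3 and 12.7% on chromosome 16. Without chromosomes 3 and 16, 5335 of the 6527 regions remained, with 27.9% holding a Cdx word, 68.9% an RMES peak and 1.65% at promoters.

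The RNA-seq libraries were checked first for Cdx2 itself. In mESCs it stood at 1.36 and 1.21 CPM (TMM-normalised counts relative to library size) in WT, 97.9 and 127 in mCdx2-OE and 70.4 and 67.0 in rCdx2-OE cells. On the mouse allele of RMES cells it stood at 129 and 127 CPM in WT, 968 in mCdx2-OE and 4.45 in rCdx2-OE cells, where reads were assigned to either genome by edit distance. The RMES WT libraries thus held mouse Cdx2 reads. WT mESCs expressed the pluripotency genes Pou5f1 (1469 and 1470 CPM) and Nanog (539 and 541 CPM). Of 10 fibroblast markers, 9 were tested and their summed level was 46.9 to 47.5 CPM in WT and 22.7 to 26.3 CPM in mCdx2-OE cells, with Dcn under 1 CPM in all libraries. Of 10 neural markers, 9 were tested, with a summed level of 120 to 121 CPM in WT and 64.7 to 80.3 CPM in mCdx2-OE cells, and no tested marker of either list was at 0 in all libraries. The part of such cells in the results below was not tested. In bulk RNA, fewer cells of a type and less RNA per cell cannot be told apart.

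Genes near opened Cdx2-bound peaks were more often higher in induced mESCs. A gene was linked when such a peak overlapped the 60 kb region centred at its start, and a call needed an adjusted p under 0.05 (edgeR quasi-likelihood test, Benjamini-Hochberg over all genes) and an absolute log2 fold change over 1. In mCdx2-OE against WT cells, 663 of 3050 linked genes (21.7%) were called higher, against 18.4% of all 16000 genes tested, and 318 (10.43%) lower, against 15.0%. The contrast grew with the number of such peaks near a gene. With 2 peaks, 27.4% of 486 genes were higher and 8.02% lower, and with 3 or more, 40.0% of 85 were higher and 4.71% lower, while 17.0% of 12164 genes without such a peak were higher and 16.4% lower. It also grew with closeness, from 17.0% of genes higher when the nearest such peak was over 100 kb away to 26.5% of 615 genes when it was under 5 kb. The median log2 fold change was 0.58 with 3 or more peaks, 0.14 over all linked genes and -0.028 over all genes tested. The 85 genes with 3 or more peaks include Hoxa3, Hoxa4, Hoxa5, Hoxa6, Hoxa7, Hoxa9 and Hoxa10. These Hoxa genes share peaks and were all called higher, so the 85 are not independent examples.

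The other kinds of ATAC-seq peak set a scale for these shares. Among genes without an opened Cdx2-bound peak within the same distance, 24.1% of 2293 genes near an opened peak without Cdx2 were called higher, 12.3% of 3068 near an unchanged bound peak, and 11.8% of 6549 near a closed peak. Where an opened Cdx2-bound peak and a closed peak lay near the same gene, 16.1% of 1435 genes were higher and 13.7% lower, and with no closed peak nearby 26.7% of 1615 were higher and 7.49% lower. Linked genes were expressed in WT cells at a median of 20.3 CPM, against 15.2 CPM for those without such a peak. Of the regions themselves, 2527 (38.7%) lay within 30 kb of the start of a tested gene, and 4000 did not.

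In rCdx2-OE cells, for which no ATAC-seq was analysed, the same genes gave like values. Of the 3050 linked genes, 672 (22.03%) were called higher, against 19.0% of all genes, and 321 (10.52%) lower, against 15.4%. With 3 or more peaks, 34 of 85 genes were higher and 5 lower. Both comparisons share the WT libraries, so they are not independent.

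On the mouse allele of RMES cells, Cdx2-OE cells (1 library of each protein, used as replicates by the study too) gave other values. Of 3142 linked genes, 740 (23.6%) were called higher, against 28.3% of all 16887 genes tested, and 539 (17.2%) lower, against 16.1%. With 3 or more peaks, 15 of 90 genes were higher and 23 lower. The 90 include the Hoxa genes that share peaks. The peaks were called opened in mESCs, and no ATAC-seq of RMES cells was analysed here. In this comparison, chromosome 16 had a median log2 fold change of -0.88. Without chromosomes 3 and 16, 24.4% of linked genes were higher and 15.6% lower. Over all genes with a position outside both chromosomes, 28.4% were higher and 15.2% lower. The order of the shares of higher genes depended on the filter, since with all genes that had a count tested, 22.2% of linked genes and 20.3% of all genes were called higher.

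**Figure D4:**
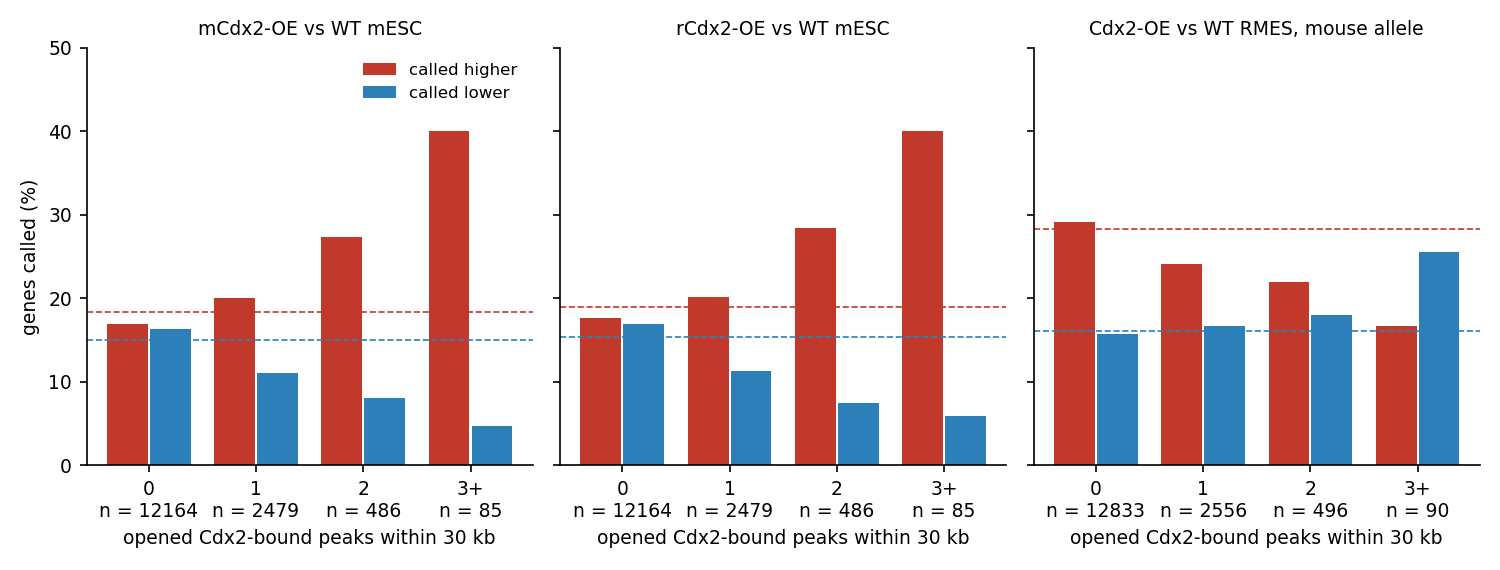
Percent of genes called higher (red) or lower (blue; y axis) by the number of opened Cdx2-bound peaks within 30 kb of the gene start (x axis, with the number of genes), for mCdx2-OE and rCdx2-OE mESCs and for RMES cells against WT. Dashed lines mark the percent over all genes tested, and in mESCs 40.0% of genes with 3 or more peaks are called higher. Several of these are neighbouring Hoxa genes that share peaks.

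Opened Cdx2-bound peaks lay between the genes of all 4 Hox clusters. They were 7 of 28 tested ATAC-seq peaks at Hoxa, 4 of 23 at Hoxc, 2 of 23 at Hoxb and 2 of 18 at Hoxd, where 7.83% of all tested peaks were such peaks. With 30 kb on each side included, Hoxb and Hoxc also held 4 closed peaks each, Hoxd 1 and Hoxa 0. The Hoxa peak with most ChIP-seq reads lay near Hoxa5 (chr6:52200632-52201551, the second sequence above) and held 12.95 scaled ATAC-seq reads in WT and 74.7 in mCdx2-OE cells, with 501 mCdx2 and 465 rCdx2 ChIP-seq reads. A peak near Hoxa7 (chr6:52215857-52219516) was already accessible in WT cells, with 120.1 reads, and held 421 in mCdx2-OE cells. At Hoxd, a peak 9645 bp from the annotated start of Hoxd4 (chr2:74720996-74722152) went from 11.8 to 133 reads and held 1 Cdx word. Of the 39 Hox genes listed, 29 had an opened Cdx2-bound peak within 30 kb, against 19.6% of all genes with a position. Of the 28 of these that were tested, 25 were called higher in mCdx2-OE and 25 in rCdx2-OE cells, none lower. Over all 35 tested Hox genes, with or without such a peak, the counts were 31 and 30, also with none lower. Of all genes tested, 18.4% and 19.0% were called higher.

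Neighbouring Hoxa genes share the same peaks, so they are not independent examples. Hoxa9, which had 5 such peaks, stood at 0.0283 and 0.0228 CPM in WT (2 counts in each library), 18.3 and 23.5 in mCdx2-OE and 14.7 and 20.2 in rCdx2-OE cells, so all 4 induced libraries lay far above WT. Hoxa7 went from 0.694 and 0.651 CPM to 14.5 and 16.3 in mCdx2-OE cells (log2 fold change 4.51 ± 0.17 SE, adjusted p = 1.6e-12, edgeR). Hoxa3 and Hoxa5, with 6 peaks each, had log2 fold changes of 5.17 ± 0.32 and 4.72 ± 0.42 (edgeR, adjusted p = 7.2e-10 and 4.8e-08), and Hoxa10, with 4, of 6.58 ± 0.28. Hoxa4 and Hoxa6 rose as well but reached at most 1.17 CPM in mCdx2-OE cells. In the same comparison Hoxd4 rose from 0.0425 and 0.0228 CPM to 9.20 and 11.6. All of these Hox genes stayed under 1 CPM in WT mESCs, and no induced library of theirs overlapped with WT. For Hoxa9, Hoxa6 and Hoxd4 the folds rest on 1 to 3 WT counts per library.

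In RMES cells the more 5′ Hoxa genes ran the other way. Hoxa7 stood at 66.3 and 73.1 CPM in RMES WT, 5.72 in mCdx2-OE and 3.59 in rCdx2-OE cells (log2 fold change -3.90 ± 0.14, adjusted p = 8.6e-11, edgeR), and Hoxa9 at 43.9 and 46.7 CPM, 3.27 and 3.95. Hoxa10 fell by 4.65 ± 0.16 on the log2 scale. Hoxa3 and Hoxa5 were not called there, with log2 fold changes of -0.55 ± 0.27 and -0.35 ± 0.47. Hoxd4 rose in both cell types, standing at 0.278 and 0.390 CPM in RMES WT, 11.5 in mCdx2-OE and 17.6 in rCdx2-OE cells. Of 27 tested Hox genes with an opened Cdx2-bound peak nearby, 5 were called higher and 11 lower in RMES cells. Over all 33 tested Hox genes, 7 were higher and 14 lower there, against 28.3% higher and 16.1% lower of all genes tested. The RMES WT libraries expressed Cdx2 as given above.

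Most trophoblast stem cell markers were induced. Of 20 listed genes, 5 had an opened Cdx2-bound peak within 30 kb, where 19.6% of all 16580 genes with a position had one. In mCdx2-OE cells 4 of these 5 were called higher and 1 lower, against 13 higher and 2 lower of 19 tested. The shares over all genes tested were 18.4% higher and 15.0% lower. The list includes Cdx2 itself, the induced gene, so its rise was set by the design. The keratins Krt8 and Krt18, partners in the filaments of simple epithelia, share 1 peak (chr15:102007411-102008052), which held 20.02 scaled ATAC-seq reads in WT and 62.6 in mCdx2-OE cells and no peak in RMES cells. Krt8 went from 14.5 and 13.6 CPM in WT to 190.1 and 170.1 in mCdx2-OE cells (log2 fold change 3.68 ± 0.10, adjusted p = 5.8e-14, edgeR), and Krt18 from 8.97 and 9.86 to 251 and 230.3. In RMES cells Krt8 stood at 6.63 and 6.52 CPM in WT, 359.6 in mCdx2-OE and 451 in rCdx2-OE cells. Id2, an inhibitor of basic helix-loop-helix factors, had a peak 17917 bp upstream that went from 18.8 to 201 reads, and its RNA went from 2.04 and 1.93 CPM to 44.95 and 55.2. Gata2, a trophoblast transcription factor, went from 2.14 and 1.82 CPM to 75.02 and 74.93, although its peak sat near the lower end of the rule, with 64.8 WT and 134 mCdx2-OE reads and a log2 ratio of 0.99 when 5 instead of 1 was added. Binding there was weak and unequal, with 11.4 scaled ChIP-seq reads for mCdx2 and 36.1 for rCdx2, the lowest ratio of all 6527 regions (log2 ratio -1.59). Bmp4, a signalling ligand on the same list, fell from 17.0 and 18.1 CPM to 1.80 and 0.976 and also had such a peak nearby.

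Some naive pluripotency genes had opened Cdx2-bound peaks nearby, and none of these genes passed the call thresholds in mCdx2-OE cells. Of 15 listed genes, 7 had such a peak, against 19.6% of all genes with a position. The 7 had a median fold change of -0.41 on the log2 scale, and 3 of all 15 were called lower. Of all genes tested, 18.4% were called higher and 15.0% lower. With 7 genes, the absence of calls cannot be told apart from these shares. It also rests on the required fold, which Sox2 narrowly missed. In rCdx2-OE cells 1 of the 7, Sox2, was called lower. Near Zfp42, which encodes the marker Rex1, a peak went from 7.06 to 56.5 ATAC-seq reads and held 391 mCdx2 and 339 rCdx2 ChIP-seq reads. Its RNA stood at 129.6 and 127 CPM in WT and 69.7 and 83.4 in mCdx2-OE cells (log2 fold change -0.75 ± 0.099, adjusted p = 4.9e-06, edgeR), short of the fold required. Sox2, a core pluripotency factor, had a peak that went from 22.4 to 62.6 reads, and its RNA stood at 466 and 491 CPM in WT and 226 and 263 in mCdx2-OE cells (log2 fold change -0.97 ± 0.11, adjusted p = 5.5e-07, edgeR). Tcl1, a cofactor of Akt, had 2 such peaks and a log2 fold change of -0.67 ± 0.13. Dppa3, with a peak that went from 9.42 to 59.1 reads, stood at 43.8 and 44.3 CPM in WT and 61.8 and 66.8 in mCdx2-OE cells. For Klf5, a Krüppel-like factor, the log2 fold change was -0.22 ± 0.076 in mESCs, and it fell by 2.48 ± 0.061 in RMES cells. In RMES cells 1 of the 7 was called higher and 4 lower, against 28.3% higher and 16.1% lower of all genes tested there.

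Genes of other lineages moved in both directions. Of 14 genes of the posterior mesoderm and primitive streak, 5 had an opened Cdx2-bound peak nearby, against 19.6% of all genes with a position. Of the 4 of these tested in mESCs 1 was called higher and 2 lower. Over the whole list, 1 of 10 tested genes was called higher and 5 lower in mCdx2-OE cells. Wnt5a, a ligand of posterior growth, went from 0.723 and 0.662 CPM in WT to 3.14 and 3.06 in mCdx2-OE and 6.38 and 8.36 in rCdx2-OE cells, and its peak (chr14:28501090-28502000) with 2 Cdx words, shown above, went from 8.24 to 101.7 ATAC-seq reads. T, the brachyury factor of the primitive streak, went from 2.01 and 2.24 CPM to 0.544 and 0.260 (log2 fold change -2.31 ± 0.39, adjusted p = 7.0e-05, edgeR). Evx1, a homeobox gene beside the Hoxa cluster, went from 1.13 and 0.902 CPM to 0.0418 and 0.585, and was not called without replicate 1 (log2 fold change -0.61, adjusted p = 0.38, edgeR). Axin2, a feedback target of Wnt signalling, had 2 such peaks and a log2 fold change of -0.83 ± 0.11. Fgf8 had a peak but was not tested in mESCs.

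Of 18 intestinal genes, 4 had an opened Cdx2-bound peak nearby, a share close to the 19.6% of all genes, and 2 were called higher. Over the whole list, 3 of 9 tested genes were called higher and 1 lower in mCdx2-OE cells. Isx, an intestinal homeobox gene, had 3 such peaks and went from 0.0567 and 0 CPM (4 and 0 counts) in WT to 2.59 and 2.47 in mCdx2-OE cells. Its strongest peak, shown above, went from 3.53 to 87.8 ATAC-seq reads. Krt20, a keratin of the mature gut epithelium, went from 0.142 and 0.0799 CPM to 2.30 and 2.67. Both stayed at low levels in induced cells. Hnf4a and Anpep, the other 2, had log2 fold changes of -0.78 ± 0.27 and 0.18 ± 0.13 and were not called. Of 12 primitive endoderm genes, 2 had such a peak, also near the share of all genes. In mCdx2-OE cells 7 of the 12 were called higher, against 18.4% of all genes tested, and of the 2 with such a peak 1 was. Gata6, the endoderm factor, went from 0.581 and 0.765 CPM to 4.81 and 7.28 beside a peak that went from 1.18 to 66.0 reads with 551 mCdx2 and 524 rCdx2 ChIP-seq reads. Cubn, a receptor for vitamin B12 uptake, had a log2 fold change of -1.78 ± 0.85 that missed the threshold (adjusted p = 0.072, edgeR). No neural marker had such a peak, and of the fibroblast markers only Postn did, which went from 2.31 and 2.51 CPM to 0.335 and 0.0650. With 10 genes in each of these lists, the counts cannot be told apart from the 19.6% of all genes.

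**Figure D5:**
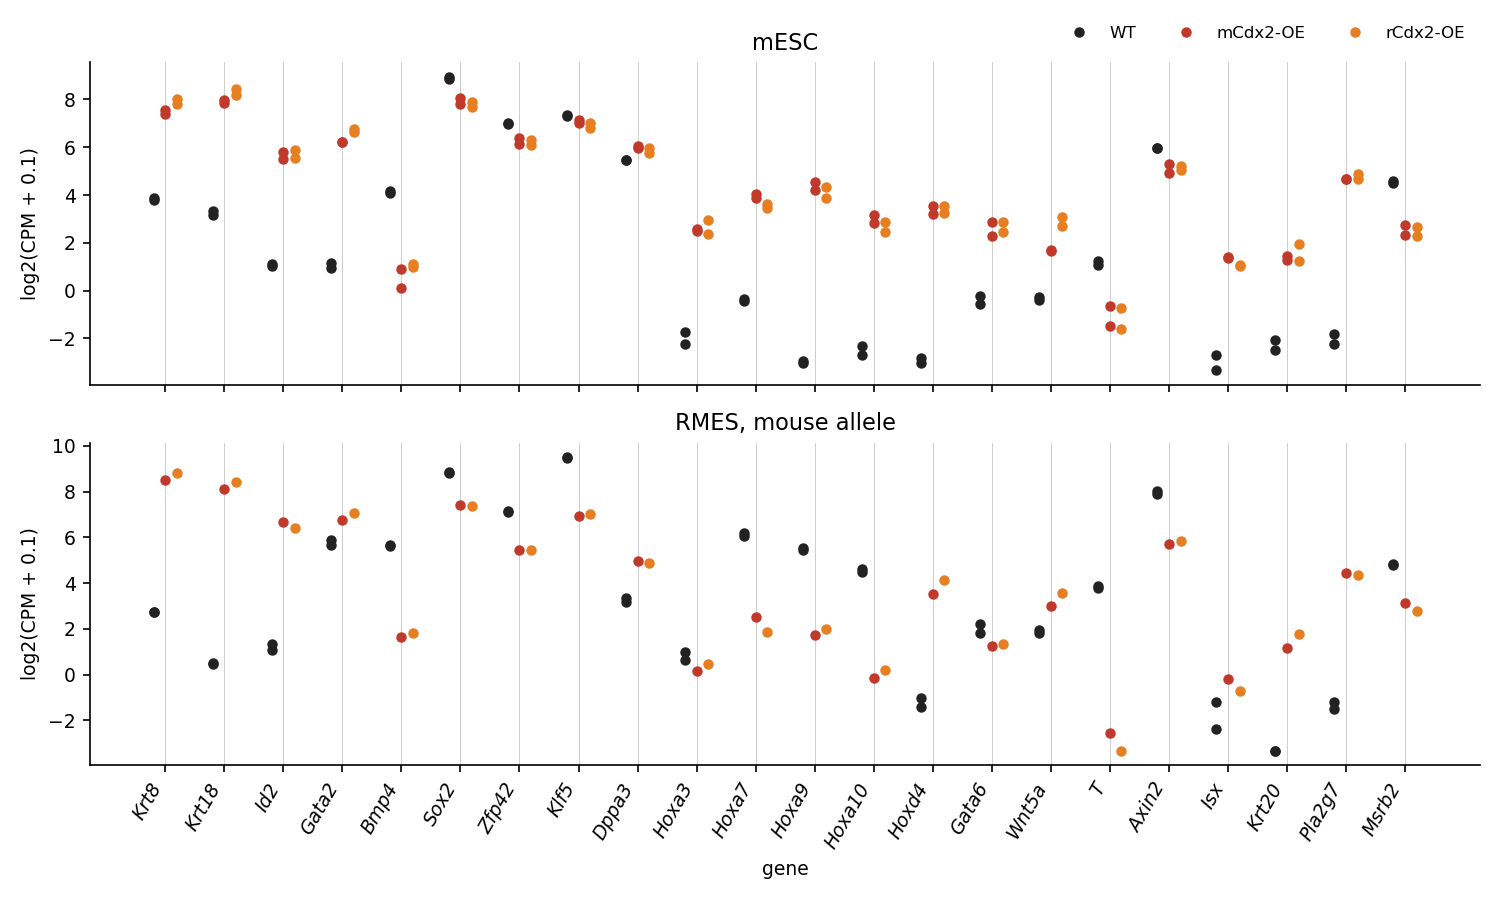
RNA level as log2(CPM + 0.1) (y axis) of 22 genes with an opened Cdx2-bound peak within 30 kb (x axis), in mESCs (top) and on the mouse allele of RMES cells (bottom). Each point is 1 library, black for WT, red for mCdx2-OE and orange for rCdx2-OE, and Hoxa7, Hoxa9 and Hoxa10 lie above WT in mESCs and below it in RMES cells.

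Outside the lists, the genes with most opened Cdx2-bound peaks were, besides 7 Hoxa genes, Cldnd1 (5 peaks), Ptbp3 (4) and Yars2 (4). Cldnd1, a claudin-domain gene on chromosome 16, rose from 23.7 and 24.0 CPM to 50.3 and 57.3 (log2 fold change 1.17 ± 0.086, adjusted p = 5.1e-09, edgeR). Ptbp3, which encodes an RNA-binding protein, and Yars2, a mitochondrial tyrosyl-tRNA synthetase, had log2 fold changes of 0.79 ± 0.18 and -0.59 ± 0.079 and were not called. Among called genes with 2 or more such peaks and enough reads, the largest rises in mCdx2-OE cells were Hoxa9, Hoxd4 and Pla2g7. Pla2g7, a secreted phospholipase that cleaves platelet-activating factor, went from 0.113 and 0.183 CPM to 25.6 and 25.2, and its peak (chr17:43566002-43566875) lay 1660 bp upstream of the start and went from 8.24 to 80.8 ATAC-seq reads. In RMES cells Pla2g7 stood at 0.339 and 0.251 CPM in WT, 21.9 in mCdx2-OE and 20.5 in rCdx2-OE cells. The largest falls were Gm15964, Gm42928 and Msrb2. Msrb2, a methionine sulfoxide reductase, went from 24.0 and 22.7 CPM to 6.69 and 4.88 with a peak that went from 30.6 to 72.1 reads, so an opened Cdx2-bound peak did not always stand beside a rise.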

How the data were processed

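The deposited values used here are read counts without normalisation, made by the authors for peaks (ATAC-seq, ChIP-seq) and for genes (RNA-seq). Per the paper's methods and the submitters' processing notes, the authors aligned reads to mm10 with STAR 2.7.0d or Bowtie2 2.3.4.3, removed duplicate and poorly aligned ATAC-seq and ChIP-seq reads, and called peaks with MACS2 on merged libraries. A shift of ATAC-seq reads is not given in the sources used here, nor whether both RNA-seq replicates were counted with the same options. RMES reads were assigned to the mouse or rat genome by edit distance. Counts cannot resolve reads shared by near-identical genes.

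Libraries held 6109353 (WT) and 8277850 (mCdx2-OE) ATAC-seq counts, 5550846 to 6223794 mESC and 3387074 to 4357448 RMES ChIP-seq counts, and 12698443 to 94686029 mESC RNA-seq counts. For each assay, peak counts were brought to the mean of both library totals, and ratios were taken after adding 1. Gene positions came from GENCODE vM21 on GRCm38, and 15214 of the 16000 genes tested in mESCs had one on chromosomes 1 to 19. RNA-seq counts were tested with edgeR 4.0.16 (quasi-likelihood, TMM, R 4.3.3) over all 20 mESC libraries, or 4 RMES libraries, after a test on simulated data. The labels do not say that replicates came from separate cultures, so p-values measure only the spread between these libraries. Named genes were, per list, up to 5 with most opened Cdx2-bound peaks, the 10 genes with most such peaks, and the 3 largest rises and falls among called genes with 2 or more. Regions and lists were chosen with earlier results of these data known. Shares carry 95% Wilson intervals, which cover counting error only, and the depth limits single regions with few reads. The alternatives tried were other scalings, thresholds, overlaps, windows, link distances, DESeq2 1.42.0 and leaving out replicates. Some binding-site sequences are not reported here.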

Additional observations from a re-analysis of the deposited data

Results flagged for a closer look

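Named genes near opened Cdx2-bound peaks whose induced libraries all lay on one side of WT in mESCs and on the other side on the mouse allele of RMES cells were Hoxa3, Hoxa6, Hoxa7, Hoxa9, Hoxa10, Gata6, Ptbp3 and Postn. The difference between the cell types was not tested. In mCdx2-OE mESCs against WT the log2 fold changes were 5.17 for Hoxa3, 4.91 for Hoxa6, 4.51 for Hoxa7, 9.41 for Hoxa9 and 6.58 for Hoxa10, and on the RMES mouse allele they were -0.55, -1.94, -3.90, -3.65 and -4.65. For Gata6 they were 3.12 and -0.75, for Ptbp3 0.79 and -0.54, and for Postn -3.39 and 0.66. The 5 Hoxa genes lie in 1 cluster and share peaks, and RMES WT cells expressed Cdx2 at 127 to 129 CPM.

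On the X chromosome, which the choice of regions left out, 293 of 2016 tested ATAC-seq peaks met the other criteria. The median log2 ratio of mCdx2-OE to WT reads over these 2016 peaks was 1.01, against -0.15 over tested peaks on chromosomes 1 to 19.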

How the results depend on the processing

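The number of opened Cdx2-bound peaks, 6527, stayed within 1.5 times under other scalings, an addition of 5 and a 50% overlap (4359 to 8571), and was 1782 at 100 or more scaled reads and 3922 at a log2 ratio above 2. Centring each chromosome on its median, chosen after seeing the data, gave 7301, of which 6476 were shared. The promoter share was 5.16% within 3 kb. The share with an RMES peak was 78.8% at a log2 ratio above 2, 65.3% without scaling and 38.2% when RMES peaks covered 50% of the region. The share with a Cdx word was 39.3% in 400 bp windows and 61.0% for 7-letter words, against 26.2% and 54.2% at unchanged bound peaks. Without scaling, the median log2 ChIP-seq ratio was 0.15. Without chromosomes 3 and 16, also chosen after seeing the data, 85.2% of the highest ChIP-seq quintile opened.

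The percent of linked genes called stayed within 1.5 times under all alternatives tried. Without TMM (library size only), 25.7% of linked genes were called higher and 8.0% lower in mCdx2-OE, against 21.9% and 11.7% of all genes. In RMES, the linked share of higher genes lay below that of all genes with DESeq2 (20.1% against 21.1%) and above it without a filter on low counts (22.2% against 20.3%). For higher calls it ranged from 19.9% to 21.1% (mCdx2-OE) and 20.1% to 21.1% (rCdx2-OE) when a replicate was left out, and for lower calls from 9.50% to 10.2% and 9.96% to 10.8%. Each RMES library left out in turn gave 21.5% to 22.3% higher and 16.4% to 17.9% lower. With 1 library left in a group, that library was assumed to vary like the others. With replicate number as a block the shares were 21.7% higher and 10.36% lower (mCdx2-OE) and 22.0% and 10.7% (rCdx2-OE). Deviations of equally numbered WT and mCdx2-OE libraries had a correlation of -0.0027, and those of WT and rCdx2-OE of -0.024. The numbers were therefore not taken to pair libraries in these comparisons. Over all 45 pairs of conditions the correlation ranged from -0.14 to 0.45, so some conditions did deviate together. Over the 37 named genes, 790 of 828 alternative values kept their direction and their side of the adjusted p threshold. The required fold was not part of this count, so a call could change within it. For example, the log2 fold change of Sox2 in mCdx2-OE went from -0.97 to -1.04 without replicate 2. That of Axin2 went from -0.83 to -1.04 without replicate 1. Direction reversed in 4 values, all of genes without a call. They were of Cubn in rCdx2-OE (-1.62 to 0.53 when a replicate was left out), Fgf8 in RMES (-0.26 to 1.10) and Hoxa4 in RMES (-0.75 to 0.37). Hoxa4 was positive without WT replicate 2 (0.16) or without mCdx2-OE. Evx1 in mCdx2-OE rested on replicate 1, with -0.61 (adjusted p = 0.38, edgeR) without it. Of 153 log2 ATAC-seq ratios of named regions, 151 stayed above 1. Differences at single regions with few reads were limited by depth.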
